A study of Mus musculus with 12 samples.

Results

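The AP-1 and BATF genes Batf, Batf3, Jun, Junb, Jund, Fos, Fosb, Fosl1 and Fosl2 were followed in lung CD4+ T cells of newborn and juvenile mice. They were taken by name, as 9 of the 19434 gene rows of the count table. The cells came from C57BL/6NJ mice of both sexes that aspirated 2800000 colony-forming units of Escherichia coli, or as the control phosphate-buffered saline (PBS), at day 5 of life (neonates) or day 15 (juveniles). Lungs were taken 48 h later, and CD4+ T cells were bead-enriched and sorted. Each of the 4 groups (PBS or E. coli, in neonates or juveniles) had 3 libraries, each made from pooled mice (3 neonates or 2 juveniles), so an n of 3 means 3 pools.

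AP-1 is a dimer of basic leucine zipper proteins. A JUN protein (Jun, Junb, Jund) pairs with a FOS protein (Fos, Fosb, Fosl1, Fosl2) or another JUN protein and binds short palindromic DNA elements, and in T cells the receptor signal raises Fos and Jun within minutes as immediate early genes. BATF and BATF3 lack a transactivation domain, pair with JUN proteins and bind DNA together with IRF4 or IRF8. BATF is needed for the Th17 and follicular helper fates, and BATF3 is best known from cross-presenting dendritic cells. Tissue digestion and sorting also raise several of these genes, Fos and Jun among them, so the values of single libraries are given throughout.

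Total counts ran from 6035445 to 8129983 per library, and a floor of 3 counts came to 0.374 to 0.494 CPM (counts scaled to 1000000 per library, with TMM factors), which covers counting error only. Transcripts that define T cells were abundant, with 7 T cell markers summing to 3778 to 4299 CPM with PBS and 3792 to 4105 CPM with E. coli in neonates, and to 4518 to 4768 and 3679 to 3998 CPM in juveniles. In the juvenile response 4 of the 7 fell, Cd3d (log2 -0.76 ± 0.12), Cd3g (-0.41 ± 0.11), Cd5 (-0.32 ± 0.10) and Cd4 (-0.26 ± 0.07). Markers of other cells were also counted. The 9 neutrophil markers summed to 0.833 to 3.27 CPM with PBS and 10.1 to 54.9 CPM with E. coli in neonates, and to 0.165 to 3.31 and 9.15 to 21.4 CPM in juveniles. Retnlg and Camp had 0 counts in neonatal PBS. S100a9, Cxcr2, Retnlg, Mmp8 and Camp had 0 counts in juvenile PBS, and Camp in juvenile E. coli. The 8 monocyte and macrophage markers summed in the same order of groups to 171 to 283, 212 to 318, 245 to 341 and 627 to 858 CPM, and none was at 0 in a group. In juveniles 6 of the 8 rose and 1 fell, beside 15.4% of all genes tested called higher and 9.42% lower. Ccr2 rose from 127 ± 6.36 to 404 ± 34.1 CPM and supplied most of the juvenile E. coli sum. Chi3l3 fell from 33.3 ± 4.39 to 1.96 ± 1.49 CPM (log2 -4.06 ± 0.41). The 6 lung epithelial markers summed to 46.5 to 81.8, 61.7 to 172, 34.3 to 41.9 and 90.1 to 204 CPM, none at 0 in a group, and Cdh1 (2.28 ± 0.25) and Scgb1a1 (2.13 ± 0.49) rose in juveniles. The 5 endothelial markers summed to 270.4 to 304, 247 to 284, 227 to 243 and 221 to 239.8 CPM, with Cldn5 at 0 in juvenile PBS. Pecam1 supplied most of each sum, at group means of 260.75, 239.65, 226.88 and 187.46 CPM in that order. The sums therefore do not show the course of the other endothelial markers. Of the endothelial markers, Kdr (3.53 ± 0.55) and Cdh5 (1.98 ± 0.53) rose and Pecam1 (-0.28 ± 0.08) fell in juveniles. Kdr went from 1.767 ± 0.195 to 20.497 ± 9.714 CPM and Cdh5 from 4.751 ± 1.605 to 18.997 ± 4.278 CPM. Of the 4 neutrophil markers that passed the low-count filter, 3 were called higher at each age, S100a8, S100a9 and Cxcr2. Their PBS means were under the floor. In neonates Emr1 was the only 1 of the 8 monocyte and macrophage markers called (higher, edgeR adjusted p = 0.0327). No epithelial or endothelial marker was called there, and 1.05% of all genes tested were called higher. The part of all these other cells in the responses below was not tested at either age. Because these are bulk libraries, fewer cells of a type and less RNA per cell cannot be told apart.

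Batf, Jun, Fos and Fosl2 passed the test in at least 1 of the comparisons below, and their upstream sequences are shown for that reason. The bases run 5′ to 3′ on the gene's strand and end just before the start annotated by RefSeq (GRCm38.p6). Capitals mark matches to the elements searched. Fos lies at chr12:85473640-85473889 (plus strand), Jun at chr4:95052223-95052472 (minus strand), Batf at chr12:85686470-85686719 (plus strand) and Fosl2 at chr5:32136222-32136471 (plus strand). The gene spans given below are from GENCODE, whose starts differ for some genes. By those spans the end of the Batf window and the whole Fosl2 window lie inside the gene, while the Fos and Jun windows end at its start.
Fos: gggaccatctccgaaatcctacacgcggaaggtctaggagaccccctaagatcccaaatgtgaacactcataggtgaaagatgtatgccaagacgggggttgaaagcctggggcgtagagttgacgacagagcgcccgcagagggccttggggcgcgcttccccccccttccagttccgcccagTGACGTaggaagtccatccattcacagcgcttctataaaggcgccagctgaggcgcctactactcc
Jun: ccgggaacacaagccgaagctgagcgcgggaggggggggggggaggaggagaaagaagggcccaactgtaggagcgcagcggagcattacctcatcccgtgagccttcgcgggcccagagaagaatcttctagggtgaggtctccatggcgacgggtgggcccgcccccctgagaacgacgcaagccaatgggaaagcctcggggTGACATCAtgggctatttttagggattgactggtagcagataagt
Batf: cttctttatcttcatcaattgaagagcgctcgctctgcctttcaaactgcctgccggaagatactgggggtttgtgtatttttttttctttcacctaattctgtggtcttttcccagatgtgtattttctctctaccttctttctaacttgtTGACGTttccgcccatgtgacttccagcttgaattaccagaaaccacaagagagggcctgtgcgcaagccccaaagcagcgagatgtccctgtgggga
Fosl2: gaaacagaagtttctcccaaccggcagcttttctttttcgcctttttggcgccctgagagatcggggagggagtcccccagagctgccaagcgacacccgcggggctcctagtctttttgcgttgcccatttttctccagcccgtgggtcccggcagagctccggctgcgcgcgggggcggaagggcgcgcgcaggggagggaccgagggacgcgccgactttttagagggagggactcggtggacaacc

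The letters searched on both strands were TGANTCA (the AP-1 site), TGACGTCA (the cyclic AMP response element, CRE), TGANNTCA (its spaced form, which includes the CRE), TGACGT (part of the CRE, added after the windows were seen), TTCNNNGAA (the STAT element) and the CArG box of serum response factor. The Jun window held TGACATCA, a match to TGANNTCA, from 45 to 38 bases before the start. This spaced form was in 11.9% of 32817 RefSeq promoter windows of 250 bases. Fos held TGACGT from 66 to 61 bases before the start and Batf from 98 to 93 bases before it, and 6.46% of windows held it. The Fosl2 window, which lies inside the GENCODE gene span, held no match. Among the members with a window but no call, Jund held TGAAATCA and Batf3 the STAT element TTCCACGAA, and Junb and Fosb held none. The Jund window ends at base 70697738, ahead of its GENCODE start at 70698949, and the Batf3 window lies inside its GENCODE span. Over all windows, the AP-1 site was in 6.75%, the CRE in 1.55%, the STAT element in 7.01% and the CArG box in 1.47%. A match describes letters only, and no match says only that these letters are not in this window.

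The low-count filter kept 8 of the 9 genes for testing. Batf3 (chromosome 1, 191097847 to 191108945, GRCm38) did not. It had 2, 4, 3 and 2 counts in all in the PBS and E. coli groups of neonates and the PBS and E. coli groups of juveniles, with every library under the floor, and no fold is given. Fosl1 (chromosome 19, 5447547 to 5455946) passed at a low level, with 29, 37, 8 and 25 summed counts in that order. Its exons share 1163 bases with Ccdc85b on the opposite strand, and because the library kit does not mark strand, reads of the pair cannot be told apart. Junb exons share 173 bases with Prdx2 on the opposite strand. Jun and Jund exons share 232 and 877 bases with the antisense genes Junos and Gm11175, which are not rows of the table.

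Levels were compared between genes only per kilobase of merged exon length. These lengths are from GENCODE, and the annotation behind the counts is not given, so ranks may depend on the lengths used. For Jund, 877 of its 1668 exon bases are shared with Gm11175, and reads of the pair cannot be told apart there. Jund, the constitutive JUN protein, was highest in neonatal PBS (45.9 ± 7.71 CPM per kb, mean ± SD), juvenile PBS (62.3 ± 12.3) and juvenile E. coli (58.8 ± 10.9), where it overlapped Jun (49.7 ± 11.7). In neonatal E. coli libraries Fosl2 was highest (54.2 ± 7.34), followed by Jund (49.4 ± 1.60) and Fos (47.0 ± 1.59), and each of these neighbours overlapped the next. In juvenile PBS libraries the order was Jund, Fos (61.2 ± 18.6), Jun (36.6 ± 11.0), Junb (29.5 ± 12.9), Fosb (18.7 ± 7.42), Fosl2 (10.8 ± 3.08) and Batf (10.4 ± 0.751), and every neighbour among these overlapped the next. In neonatal PBS libraries Jund stood clear of Junb (28.9 ± 4.59). Junb, Fos (27.0 ± 6.30), Fosl2 (26.1 ± 9.97), Jun (18.9 ± 4.34), Fosb (12.5 ± 2.84) and Batf (12.5 ± 1.07) followed, each overlapping the next. Fosl1 stayed at 0.199 to 0.804 CPM per kb as group means.

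**Figure D1:**
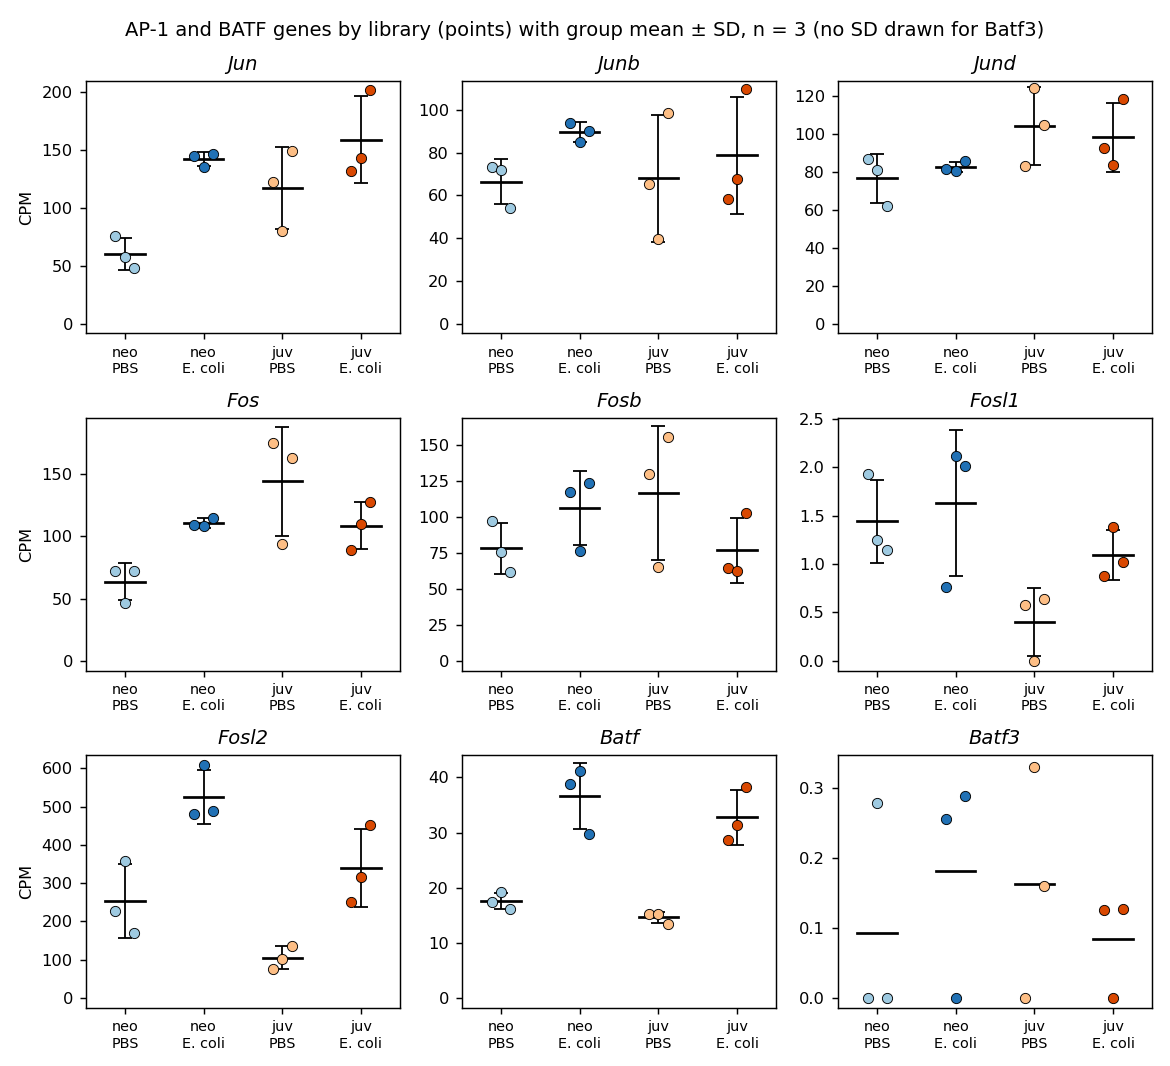
CPM of the 9 genes (vertical axes, from 0) in each library (points) of the 4 groups (horizontal axes), with the group mean and SD (n = 3). Batf separates E. coli from PBS libraries at both ages, and Fos and Jun are lowest in neonatal PBS, where Fosl2 lies above all juvenile PBS libraries.

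At day 5, the E. coli libraries were compared with the PBS libraries (the neonatal response). Batf and Jun rose, and all 8 tested genes had positive log2 fold changes. In this contrast 1.19% of the 11062 genes tested were called, and 1.05% were called higher. Batf (chromosome 12, 85686669 to 85709087) stood at 17.4, 19.2 and 16.2 CPM in PBS libraries and 38.8, 41.1 and 29.8 CPM in E. coli libraries, so the groups did not overlap. It rose by 1.06 ± 0.15 on the log2 scale (± SE, edgeR quasi-likelihood test, adjusted p = 0.00300). Jun (chromosome 4, 95049034 to 95052222) stood at 75.5, 57.4 and 48.3 CPM with PBS and 144, 135 and 146 with E. coli. The lowest Jun value after E. coli lay far above the highest after PBS, with a log2 fold change of 1.23 ± 0.21 (edgeR adjusted p = 0.00705). Without neonatal PBS library 2 the adjusted p of Jun was 0.0512.

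Fosl2 and Fos did not pass in neonates, although their groups did not overlap. Fosl2 (chromosome 5, 32135801 to 32157842), a FOS protein that limits Th17 gene expression as well as pairing with JUN, stood at 227, 359 and 171 CPM with PBS and 481, 607 and 487 with E. coli. Its log2 fold change was 1.06 ± 0.25 (edgeR adjusted p = 0.0580), as large as that of Batf with a wider spread between libraries. Fos (chromosome 12, 85473890 to 85477273) stood at 72.3, 46.4 and 71.9 CPM with PBS and 109, 108 and 115 with E. coli (log2 0.80 ± 0.21, edgeR adjusted p = 0.0900). Both passed when the 6 neonatal libraries were fitted by themselves, at adjusted p = 0.0132 for Fosl2 and 0.00857 for Fos. Fos also passed with DESeq2 (log2 0.80, adjusted p = 0.0112).

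The other 4 tested genes were not called in neonates. Junb (chromosome 8, 84974484 to 84978718) stood at 73.2, 71.8 and 54.2 CPM with PBS and 94.1, 84.8 and 90.0 with E. coli, groups that did not overlap (log2 0.43 ± 0.26, edgeR adjusted p = 0.578). Fosb, Jund and Fosl1 overlapped between the groups, with log2 fold changes of 0.43 ± 0.28, 0.10 ± 0.16 and 0.17 ± 0.55. In all, 5 of the 8 genes had groups that did not overlap, against 21.8% of all genes tested. The median log2 fold change was 0.62 over the 8 genes and -0.0027 over all genes tested.

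At day 15 the comparison of E. coli and PBS libraries was repeated (the juvenile response). Batf and Fosl2 rose, 2 of 8 genes, where 24.8% of all genes tested were called and 15.4% were called higher, so this share is close to that of all genes. Batf stood at 15.3, 15.2 and 13.4 CPM with PBS and 28.7, 31.4 and 38.3 with E. coli, and its groups did not overlap (log2 1.16 ± 0.15, edgeR adjusted p = 7.63e-05). Fosl2 stood at 76.9, 101 and 136 CPM with PBS and 252, 316 and 452 with E. coli, and its lowest E. coli library lay above its highest PBS library. It rose by 1.70 ± 0.26 on the log2 scale (edgeR adjusted p = 0.000258). The call of Batf held in both ages with each library of the comparison left out in turn, as did that of Fosl2 in juveniles.

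Jun, Fos and Fosb gave overlapping juvenile groups and were not called. Jun stood at 122, 79.6 and 149 CPM with PBS and 132, 143 and 201 with E. coli (log2 0.44 ± 0.20, edgeR adjusted p = 0.126). Fos stood at 175, 93.9 and 163 CPM with PBS and 88.8, 109.8 and 127 with E. coli (log2 -0.41 ± 0.20, edgeR adjusted p = 0.158). Fosb (chromosome 7, 19302696 to 19310051) stood at 129, 65.1 and 155 CPM with PBS and 64.5, 62.6 and 103 with E. coli (log2 -0.61 ± 0.28, edgeR adjusted p = 0.125). For Fos and Fosb, juvenile PBS library 2 lay apart from the other two of its group and near the E. coli libraries. Without it Fos and Fosb were called lower, at log2 -0.64 (edgeR adjusted p = 0.00756) and -0.89 (0.00871).

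Library 3 of juvenile PBS decided the Jun call in the same way. Without it Jun was called higher in juveniles, at log2 0.66 (edgeR adjusted p = 0.0365), and without juvenile E. coli library 3 Fosb was called lower, at -0.88 (0.0418). Junb stood at 65.6, 39.6 and 98.7 CPM with PBS and 58.5, 67.7 and 109.9 with E. coli, a spread within each group wider than the difference between them (log2 0.21 ± 0.26). Jund (chromosome 8, 70698949 to 70700616) gave log2 -0.08 ± 0.16, and Fosl1, at 4, 0 and 4 counts with PBS and 7, 10 and 8 with E. coli, gave 1.36 ± 0.70. Apart from Fosl1, which does not pass the filter on juvenile libraries alone, only Batf and Fosl2 of the tested genes had juvenile groups that did not overlap, where 36.9% of all genes tested did not.

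**Figure D2:**
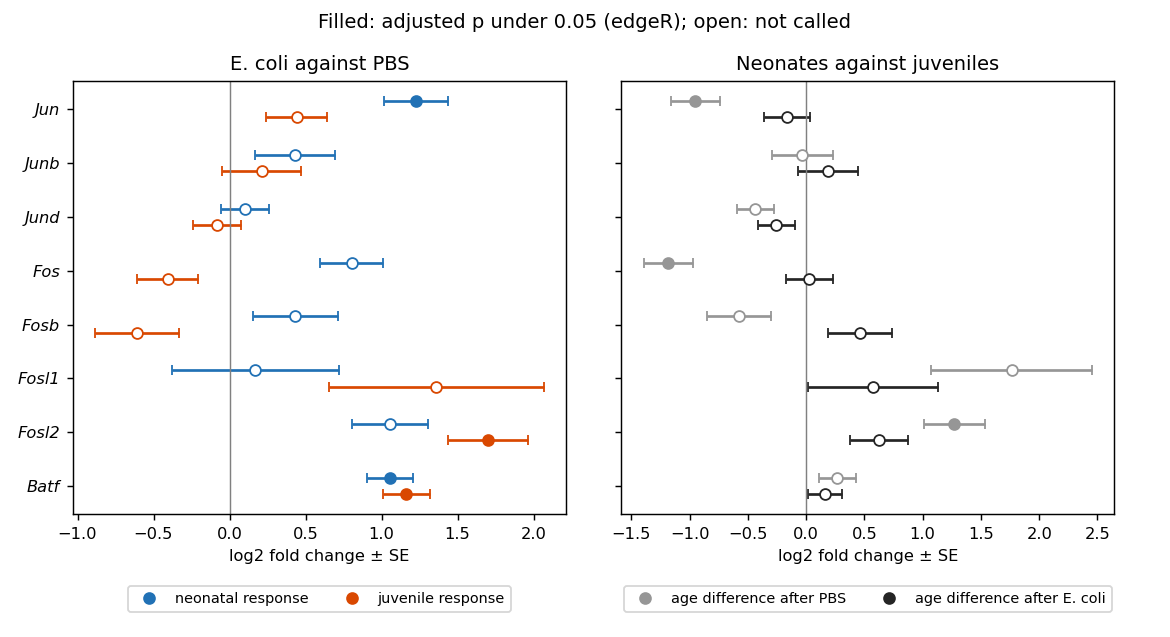
Log2 fold changes ± SE (horizontal axes) of the 8 tested genes, for E. coli against PBS at each age (left) and for neonates against juveniles after each exposure (right), with filled points where the edgeR adjusted p was under 0.05. Fos lies at 0.80 in neonates and -0.41 in juveniles, and its age difference is -1.18 after PBS and 0.03 after E. coli.

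The difference of the 2 responses was tested as an interaction. Fos responded differently at the 2 ages, the call of 1 of 8 genes where 7.00% of all genes tested were called, 5.05% higher and 1.94% lower. Its juvenile response was lower than its neonatal response by -1.21 ± 0.29 on the log2 scale (edgeR adjusted p = 0.0212). The difference missed the threshold without juvenile PBS library 1 (-1.04, adjusted p = 0.0592), juvenile E. coli library 1 (-1.11, 0.0579) or juvenile E. coli library 2 (-1.21, 0.0570). Fosb (-1.04 ± 0.39, edgeR adjusted p = 0.125) and Jun (-0.79 ± 0.29, adjusted p = 0.118) did not pass. Both passed without juvenile PBS library 2 (Fosb -1.32, Jun -1.0), and without juvenile E. coli library 3 (Fosb -1.31, Jun -1.0). For Batf the difference was 0.11 ± 0.22 (edgeR adjusted p = 0.817) and for Fosl2 0.64 ± 0.36 (adjusted p = 0.316).

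Neonates and juveniles were then compared after PBS. Fos and Jun were lower and Fosl2 was higher in neonates, 3 of 8 genes, where 4.08% of all genes tested were called, 2.32% higher and 1.75% lower. Fos stood at 46.4 to 72.3 CPM in neonatal and 93.9 to 175 CPM in juvenile libraries, with no overlap, and its log2 difference was -1.18 ± 0.21 (neonates minus juveniles, edgeR adjusted p = 0.00542). Jun stood at 48.3 to 75.5 against 79.6 to 149 CPM, also with no overlap (-0.95 ± 0.21, edgeR adjusted p = 0.0185). Fosl2 stood at 171 to 359 CPM in neonatal against 76.9 to 136 CPM in juvenile libraries (1.27 ± 0.26, edgeR adjusted p = 0.0119). These PBS libraries also enter the responses above, so these results share their controls and are not independent of them.

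The age call of Fos held with each library left out, and those of Jun and Fosl2 did not. Jun missed the threshold without neonatal PBS library 2 or 3 or juvenile PBS library 1 or 3 (adjusted p = 0.0630, 0.0733, 0.0641 and 0.0745). Fosl2 missed it without neonatal PBS library 2 (adjusted p = 0.0634) or juvenile PBS library 1 (0.0635). Fosb was called lower in neonates without juvenile PBS library 2 (-0.86, adjusted p = 0.0373) and not with it (-0.58 ± 0.28, adjusted p = 0.295). Jund (-0.44 ± 0.16), Junb (-0.03 ± 0.26), Batf (0.27 ± 0.16) and Fosl1 (1.76 ± 0.69) were not called. Groups did not overlap for Jun, Fos, Fosl2 and Batf, where 20.0% of all genes tested did not. Fosl1, at 13, 9 and 7 counts in neonates and 4, 0 and 4 in juveniles, is left out here because it does not pass the filter on the PBS libraries alone.

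After E. coli none of the 8 genes was called between the ages by edgeR, while 17.8% of all genes tested were, 6.42% higher and 11.3% lower in neonates. Fos stood at 108 to 115 CPM in neonatal and 88.8 to 127 CPM in juvenile libraries (log2 0.03 ± 0.20). Jun stood at 135 to 146 against 132 to 201 CPM (-0.16 ± 0.20), and Batf at 29.8 to 41.1 against 28.7 to 38.3 CPM (0.16 ± 0.14). For these genes the ranges of the 2 ages overlapped, and those of Fos and Jun were wider in juveniles. Fosl2 was the exception, at 481 to 607 against 252 to 452 CPM with no overlap (0.63 ± 0.25, edgeR adjusted p = 0.0980), and 39.9% of all genes tested did not overlap. It was the only member of the 8 with an unadjusted p under 0.05, and DESeq2 also called none. Fosl2 passed in the fit of these 2 groups alone (adjusted p = 0.0324) and without juvenile E. coli library 3 (0.89, adjusted p = 0.0272).

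The make-up of the family was described per kilobase, with no test and with the limits of length and strand given above. Juvenile PBS libraries differed most in the balance of Fos to Fosl2. The ratio of Fos to Fosl2 was 9.36, 3.83 and 4.91 in juvenile PBS libraries, and 1.45, 1.43 and 1.16 in E. coli libraries of that age. In neonates it was 1.31, 0.532 and 1.73 with PBS and 0.933, 0.732 and 0.970 with E. coli. Fosl2 supplied 3.44% to 5.54% of the summed level of juvenile PBS libraries and 12% to 14.3% once juveniles had received E. coli. In neonates it supplied 12.1% to 20.5% with PBS and 17.9% to 22.5% with E. coli. The Batf share was 3.52% to 5.72% with PBS in juveniles and 6.50% to 7.87% in neonatal PBS, and it was 7.64% to 10.5% and 8.33% to 9.42% in the E. coli libraries of neonates and juveniles. The 3 JUN genes together made up 45.7% to 61.9% in every library.

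**Figure D3:**
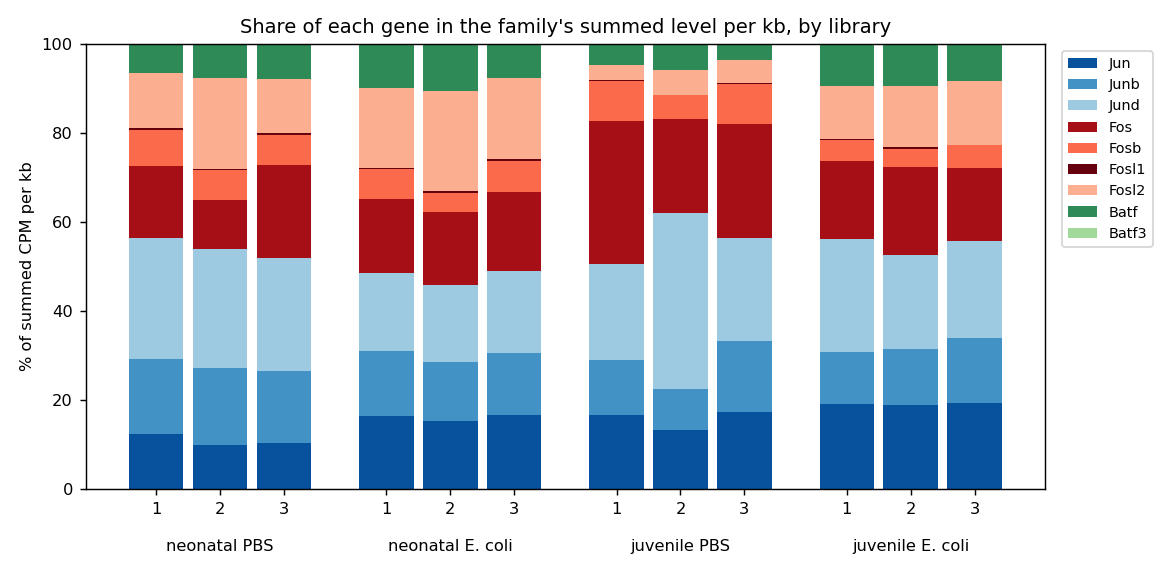
Share of each gene in the family's summed CPM per kb (vertical axis, percent) in each library (bars, grouped by condition). Juvenile PBS bars carry the narrowest Fosl2 and Batf bands, and juvenile PBS library 2 carries the widest Jund band (39.5%).

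The spread between libraries of a group differed by gene. The SD of log2 CPM within groups, pooled over the 4 groups, was 0.18 for Batf, below the median of 0.20 over all genes tested. It was 0.23 for Jund, 0.33 for both Jun and Fos, 0.41 for Fosl2, 0.42 for Junb, 0.46 for Fosb and 0.62 for Fosl1. Jun, Junb, Fos, Fosb and Fosl2 were thus at the 75.8 to 87.6 percentiles of all tested genes and Batf at the 43.5 percentile. For Fos, Jun, Junb and Jund the neonatal E. coli libraries were the closest to each other, with coefficients of variation of 3.37%, 4.23%, 5.20% and 3.24%. In juvenile PBS libraries those of the same genes were 30.4%, 30.0%, 43.6% and 19.8%. Batf was the other way round, at 16.4% in neonatal E. coli libraries and 7.23% to 15.1% in the other groups. Fosb and Fosl1 were also wider in neonatal E. coli (24.3% and 46.1%) than in neonatal PBS libraries (22.7% and 29.7%).

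Several genes were high or low together in single libraries. Juvenile PBS library 2 was the lowest of its group for Jun, Junb, Fos, Fosb and Fosl1 and the highest for Jund. Juvenile E. coli library 3 was the highest of its group for 7 of the 8 genes, all but Fosl1. Neonatal PBS library 3 was the lowest for 7 of the 8, all but Fos, and neonatal PBS library 1 was the highest for Jun, Junb, Jund, Fos, Fosb and Fosl1. Fosl2 did not follow the others in neonatal PBS, where library 2 was highest for Fosl2 and lowest for Fos. The same counts were not made over all genes tested, so whether these orders are particular to the family was not tested. Juvenile PBS library 2 also differed from libraries 1 and 3 over genes in general. The chi-square per degree of freedom was 14.4 and 19.6, against 4.50 between libraries 1 and 3. Juvenile E. coli libraries 1 and 3 differed by 13.2, against 4.85 and 7.03 for the other pairs.

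**Figure D4:**
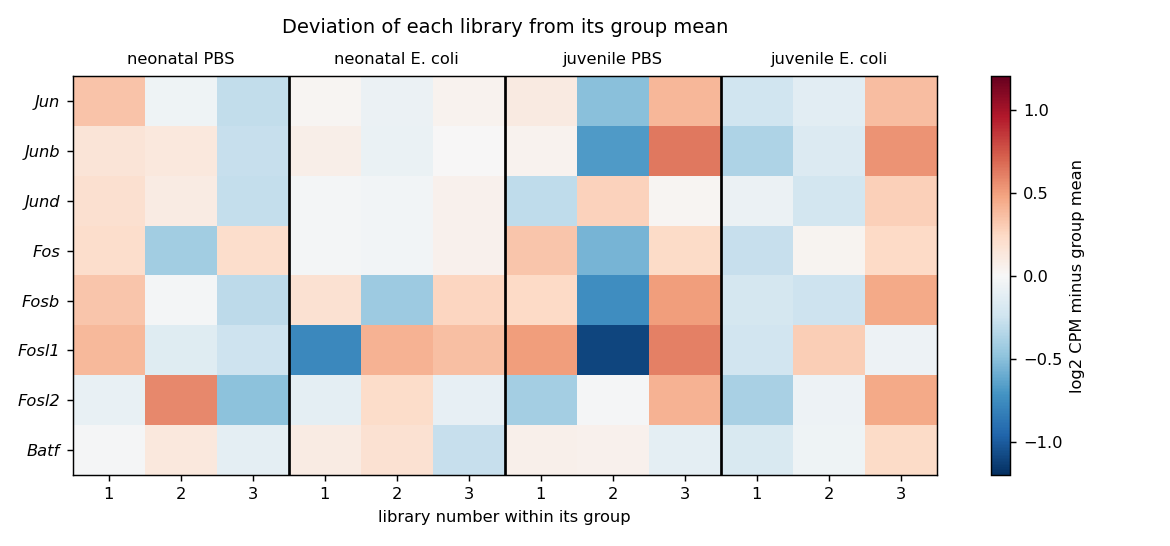
Log2 CPM of each tested gene (rows) in each library (columns) minus the mean of its group, from low (blue) to high (red). Juvenile PBS library 2 is low for 5 genes and juvenile E. coli library 3 high for 7, while the Batf row and the neonatal E. coli columns of Jun, Junb, Jund and Fos are pale.

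Other immediate early and dissociation stress genes were set beside these values, 30 genes that hold no member of the family. They summed to 6258, 6273 and 5731 CPM in neonatal PBS libraries, 7828, 8135 and 8272 in neonatal E. coli, whereas juveniles had 7062, 7363 and 7783 with PBS and 7831, 8203 and 9705 with E. coli. The sum was thus highest in juvenile E. coli library 3 and lowest in neonatal PBS library 3, the libraries highest or lowest for 7 of the 8 genes, while juvenile PBS library 2 was in the middle of its group. Juvenile PBS library 2 had the highest sum of immature T cell markers in its group, 328.9 CPM against 44.5 and 60.9. Neonatal PBS library 1 likewise had 528 CPM against 128 and 90.3. With E. coli the sums were 35.9, 78.8 and 35.8 CPM in neonates and 220, 250 and 192 CPM in juveniles. The 5 markers were Rag1, Rag2, Dntt, Cd8a and Cd8b1, and none was at 0 in a group. The part of sorting stress or of immature cells in the results was not tested.

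In neonates 6 of these 30 rose, with 0 lower and 24 short of the threshold, where 1.19% of all genes tested were called. The 6 included the signalling regulator Rgs1 (log2 1.25 ± 0.14), the heat shock gene Hspa1a (2.64 ± 0.35) and its near-identical copy Hspa1b (3.25 ± 0.46), between which reads may be split, and the mRNA decay factor Zfp36 (1.22 ± 0.21). In juveniles 13 rose, 2 fell and 15 did not pass, where 24.8% of all genes tested were called. Hspa1a (4.38 ± 0.40), Hspa1b (5.06 ± 0.53), Rgs1 (2.19 ± 0.14) and the nuclear receptor Nr4a2 (1.75 ± 0.22) were among the risers. The median log2 fold change of the 30 was 0.43 in neonates and 0.23 in juveniles. After PBS, 2 of the 30 were higher and 4 lower in neonates than in juveniles, where 2.32% of all genes tested were called higher and 1.75% lower. The phosphatase Dusp1 (-0.82 ± 0.15) and the zinc finger factor Klf6 (-0.61 ± 0.08) were lower, as were Fos and Jun, and Nr4a2 (1.08 ± 0.22) and Nr4a3 (0.82 ± 0.18) were higher, as was Fosl2. In the difference of responses 2 were higher and 3 lower, where 7.00% of all genes tested were called. Rgs1 (0.94 ± 0.20, edgeR adjusted p = 0.0111) was higher. The factor Klf2 (-0.90 ± 0.24) and the antiproliferative genes Btg2 (-0.79 ± 0.21) and Btg1 (-0.54 ± 0.15) were lower, as was Fos.

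Of 18 tested genes for other basic leucine zipper proteins of the wider superfamily, 1 rose in neonates and 0 fell, beside 1.19% of all genes tested called. That gene, Maf, a regulator of Il10 and of Th17 and follicular helper cells, stood at 48.1 ± 1.18 CPM with PBS and 74.1 ± 11.9 CPM with E. coli (log2 0.62 ± 0.13, edgeR adjusted p = 0.0231). In juveniles 6 rose and 1 fell, beside 15.4% of all genes tested called higher and 9.42% lower, with Maf at 1.51 ± 0.12, the cyclic AMP modulator Crem at 1.42 ± 0.16, Nfil3 at 1.76 ± 0.24 and the small Maf protein Mafg at 1.11 ± 0.17. The responses of Maf (0.89 ± 0.17), Nfil3 (1.54 ± 0.33) and Crem (0.88 ± 0.22) were larger in juveniles by the interaction test. After E. coli, 2 of the 18 were higher and 4 lower in neonates, beside 6.42% of all genes tested called higher and 11.3% lower. Bach2, a repressor that competes with AP-1 at its sites, was higher in neonates (541.9 ± 41.3 against 316 ± 72.6 CPM, log2 0.78 ± 0.14), and Jdp2, a JUN dimerization partner, was lower (2.01 ± 0.633 against 7.64 ± 1.97 CPM, log2 -1.93 ± 0.35).

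Irf4, which binds DNA together with BATF-JUN dimers, rose at both ages, from 111 ± 4.68 to 453 ± 116 CPM in neonates (log2 2.02 ± 0.21) and from 89.7 ± 32 to 505 ± 69.5 CPM in juveniles (2.5 ± 0.21). Of the 5 IRF and NFAT partners, 1 rose in neonates, and 2 rose and 1 fell in juveniles, beside the same 1.19% and 24.8% of all genes tested called. Irf8 rose in juveniles (1.63 ± 0.19) and was lower in neonates both after PBS (-0.86 ± 0.20, edgeR adjusted p = 0.0227) and after E. coli (-1.83 ± 0.19). Irf8 is also abundant in dendritic cells, whose 9 markers summed to 96.3 to 146, 131 to 157, 184 to 278 and 398 to 482 CPM in PBS and E. coli libraries of neonates and then of juveniles. Cd74 supplied most of each sum, at group means of 72.9, 98.9, 153 and 295 CPM in that order. Zbtb46 stood at 15.4, 11.4, 12.7 and 11.2 CPM. Xcr1 stood at 1.44, 2.76, 3.06 and 5.99 CPM, and Clec9a at 1.48, 0.839, 1.88 and 6.39 CPM. In juveniles 4 of the 9, Clec9a among them, were called higher with E. coli and 0 lower, where 15.4% of all genes tested were called higher. Between the ages, 4 of the 9 were lower in neonates after PBS and 7 after E. coli, and 0 were higher. Of all genes tested, 1.75% and 11.3% were called lower there. None of the 9 was at 0 in a group, and the part of these cells in the result was not tested.

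Of 14 MAP kinase genes upstream of AP-1, 1 rose in neonates, and 4 rose and 2 fell in juveniles, again beside 1.19% and 24.8% of all genes tested. Map3k8, a kinase that activates the ERK pathway, rose at both ages (1.13 ± 0.14 and 2.10 ± 0.15) and was higher in neonates after PBS (21.2 ± 0.826 against 12.4 ± 1.35 CPM, log2 0.77 ± 0.16). Its response was larger in juveniles (0.98 ± 0.21, edgeR adjusted p = 0.0105). Serum response factor and its cofactors, which drive Fos, did not pass in neonates (6 genes, median log2 fold change 0.024). In juveniles 2 of the 6 fell, Elk4 (-0.28 ± 0.08) and Mkl1 (-0.36 ± 0.11), where 9.42% of all genes tested were called lower.

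Of 13 tested genes known as targets of BATF or AP-1, 2 rose in neonates and 0 fell, where 1.05% of all genes tested were called higher. The 2 were the Th17 cytokines Il22 (3.61 ± 1.34 to 13.0 ± 1.21 CPM, log2 1.86 ± 0.30) and Il17a (0 counts in all PBS libraries and 1.39 ± 0.528 CPM after E. coli). In juveniles 11 rose and 0 fell, with Prdm1, a transcriptional repressor made in effector T cells, at 2.15 ± 0.15, the checkpoint receptor Ctla4 at 1.79 ± 0.17 and the adhesion receptor Cd44 at 0.84 ± 0.10, where 15.4% of all genes tested were called higher. Juvenile E. coli library 3, the highest for 7 of the 8 tested AP-1 and BATF genes, had the lowest sum over the 15 listed targets. It had 2277 CPM against 3212 and 3017, and juvenile PBS libraries had 1436 to 1909.8 CPM. Abundant genes weigh most in such a sum. In juvenile E. coli libraries Ctla4 had 806 ± 170 and Cd44 434 ± 41.4 CPM, where the sum was 2835 ± 493. This is 1 library, and a relation between the family and these targets was not tested. The responses of Prdm1 (1.72 ± 0.21), Ctla4 (1.86 ± 0.24), Il22 (4.06 ± 0.74) and the cyclin Ccnd1 (1.23 ± 0.28) were larger in juveniles by the interaction test, where that of Batf was not called. Il22 rose in juveniles (5.92 ± 0.56) from a PBS mean of 0.110 ± 0.190 CPM, under the 3-count floor, to 7.33 ± 0.520 CPM. After PBS it was higher in neonates (4.89 ± 0.63). Both this difference and the interaction of Il22 rest on that juvenile PBS mean under the floor. After E. coli the mean of Il22 was 13.0 CPM in neonates and 7.33 CPM in juveniles. The median log2 fold change of the 13 was 0.43 in neonates and 1.79 in juveniles, beside -0.0027 and -0.012 over all genes tested.

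For each tested member, the 2 genes with the most similar course over the 12 libraries were found by the root mean square difference of centred log2 CPM, among 8057 genes. For Batf these were Gcc1 (0.15) and Sgk1 (0.18), where the centred Batf values themselves had a root mean square of 0.57. For Junb they were Ier5 (0.16) and Ppp1r15a (0.16), both of the stress list, against 0.40 for Junb itself. Jun was nearest to Ctsw (0.32) and Zfp36 (0.33, also of the stress list) and Fos to Fasl (0.26) and Rabepk (0.27), against 0.60 and 0.50. Fosl2 was nearest to Nr4a2 (0.30, also of the stress list) and Elovl6 (0.36), against 0.92. Fosb was nearest to Fxyd5 (0.23) and Atn1 (0.24), Jund to Utp23 (0.14) and Slc50a1 (0.14), and Fosl1 to the histone genes Hist1h2bb (0.43) and Hist1h2bn (0.44). Histone genes are near-identical copies whose reads may be split.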

How the data were processed

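RNA of 12 libraries was analysed. Per the labels, cDNA was made with a kit that does not mark strand and sequenced as paired ends. Bases were called with CASAVA 1.8.4 and reads aligned with STAR to GRCm38, per the submitters' processing notes. The deposited values are whole-number counts per gene symbol, with no scaling. The name of the deposited table gives SeqMonk as the counting tool. Its version, annotation and strand setting: not given in the sources used here.

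Low counts were removed with filterByExpr (minimum count of 10 at the median depth in as many libraries as a group holds, and 15 in total), leaving 11062 of 19434 genes. Tests used the quasi-likelihood F statistic of edgeR 4.0.16, run in R 4.3.3, on the 4 group means with TMM scaling, adjusted by Benjamini-Hochberg over all genes tested, threshold 0.05. Each SE is the absolute log2 fold change over the square root of F. CPM use the tested genes' library totals and TMM factors. Log2 CPM used a prior count of 2. The fit was tested on simulated data. Libraries within a group differed by more than counting noise (chi-square per degree of freedom, 3.88 to 19.6), so none was a duplicate. Exon lengths and coordinates are from GENCODE M21, and promoters from RefSeq (8 of 9 members matched). Members and lists were chosen with earlier results of these data known. Named genes were all members, up to 4 called genes of smallest p per list and comparison, and the 2 nearest profiles, from which those shown were drawn. Marker lists also covered B cells and fibroblasts with smooth muscle, whose sums ranged over the 12 libraries from 20.8 to 44.3 CPM and from 12.5 to 28.3 CPM, with none of their tested genes called in any comparison and Pdgfra at 0 in both juvenile groups. The alternatives were DESeq2 1.42.0, upper-quartile or RLE scaling, no filter, a replicate block, leaving out single libraries and fitting only the groups compared.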

Additional observations from a re-analysis of the deposited data

Results flagged for a closer look

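Fos responded differently to E. coli at the 2 ages by the interaction test, with a juvenile response minus neonatal response of -1.21 ± 0.29 on the log2 scale (edgeR adjusted p = 0.0212). Fos was higher after E. coli in neonates (3 of 3 libraries above all PBS libraries), and in juveniles 2 of 3 PBS libraries lay above all E. coli libraries. Leaving out each of the 12 libraries in turn gave -1.44 to -1.04.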

How the results depend on the processing

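Batf in both responses, Fosl2 in juveniles and Fos between the ages after PBS kept their direction and their call under all 12 alternatives run for each. The count of members called in neonates was 2, 3 with DESeq2 (Fos added), and 4 with no filter or with only the groups compared. In the age difference after E. coli it was 0, and 1 with only the groups compared. Leaving out 1 library gave 2 to 2 members in neonates, 2 to 4 in juveniles, 0 to 3 for the difference of responses, 1 to 4 for the age difference after PBS and 0 to 1 after E. coli. The adjusted p of Jun in neonates ran from 1.90e-06 to 0.0512 over its alternatives, of Fosl2 in neonates from 0.00836 to 0.251, of Fos in neonates from 0.00857 to 0.309, and of the Fos difference of responses from 0.00103 to 0.0592. For the age difference after PBS it ran from 0.000377 to 0.0745 for Jun and from 0.00159 to 0.0635 for Fosl2.

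Over all genes, the 132 calls in neonates were 238 with DESeq2 and 320 with only the groups compared, and the 451 calls between ages after PBS were 729 and 280. Leaving out 1 library gave 55 to 126 calls in neonates, 1656 to 3204 in juveniles, 368 to 1553 for the difference of responses, 177 to 671 between ages after PBS and 1108 to 2063 after E. coli. The cause was not tested.

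With a replicate block, 3 members were called in neonates, Fosl2 having passed (adjusted p = 0.0457), and the other comparisons had 2, 1, 3 and 0 as without it. The labels do not say that numbers pair libraries, and same-numbered libraries deviated together (correlation over 0.1) in 2 of 18 pairs. Signs turned only for changes that were not called. With the block, Junb between ages after PBS was 0.041. With 1 library left out, log2 values ran from -0.021 to 0.21 for Jund and -0.065 to 0.52 for Fosl1 in neonates, from -0.11 to 0.59 for Junb and -0.24 to 0.067 for Jund in juveniles, and from -0.020 to 0.17 for Batf and -0.54 to 0.16 for Junb in the difference of responses. Between ages they ran from -0.30 to 0.33 for Junb after PBS, and from -0.096 to 0.16 for Fos and -0.28 to 0.046 for Jun after E. coli. With only the groups compared, Fosl1 did not pass the filter in juveniles or between ages after PBS and gave no value. Depth limits Batf3 and Fosl1, which lie under or near the 3-count floor.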
